A study of Homo sapiens with 4 samples.

Results

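The NR4A family is a group of orphan nuclear receptors with the genes NR4A1 (Nur77), NR4A2 (Nurr1) and NR4A3 (NOR1), and its transcripts were followed here between 4 h and 8 h of exposure to merbarone. The members were taken by gene symbol, and all 3 were found among the 23459 genes listed in each library. The family was selected on its normalized counts, which were known to be much higher at 8 h, so its own levels and fold changes are given as a description, without a test. The libraries came from wild type hTERT RPE-1 cells, a human line of retinal pigment epithelium origin immortalized with telomerase. All cultures were kept for 48 h in medium with 0.1% FBS, which arrests them in G0/G1, and then received 200 μM merbarone, a catalytic inhibitor of TOP2, for 4 h (2 libraries) or 8 h (2 libraries). Untreated cells were not analysed here, so the time of exposure and the time in low serum cannot be told apart.

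Between 8064450 and 10324697 reads were counted on genes per library. Among 12 marker genes of pigment epithelium, MITF and OTX2 were clearly detected in every library, with at least 669 and 132 reads. RDH5 had 43 to 75 reads per library and PMEL 7 to 12. RPE65, BEST1, RLBP1, TYRP1, LRAT and TTR had at most 7 reads in any library, and TYR and DCT had 0 in all of them. PTPRC, PECAM1 and GFAP, markers of leukocytes, endothelium and glia, had at most 8. RNA was measured in bulk, so more RNA per cell and more cells that express a gene cannot be told apart.

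NR4A receptors are transcription factors with a DNA-binding domain of paired zinc fingers and a ligand-binding domain whose pocket is filled by bulky side chains. Because no ligand is needed, the amount of protein is thought to set much of their activity. They are immediate-early genes, switched on within minutes to hours by cAMP, calcium, growth factors and stress, through CREB with its coactivators, MEF2 and serum response factors. As monomers they bind the element NBRE (AAAGGTCA), and NR4A1 and NR4A2 can also pair with retinoid X receptors.

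The family members share a gene structure that the selection did not use. In hg19, NR4A1 spans chr12:52416616-52453291 on the plus strand, NR4A2 chr2:157180949-157198860 on the minus strand and NR4A3 chr9:102584137-102629173 on the plus strand. Their canonical transcripts have 7, 8 and 8 exons, and in each an exon of 130 bases and one of 179 bases occur after the long coding exon. The exon of 130 bases, which belongs to the zinc finger region, is shown because it lets the members be compared base by base at equal length. It is read along the gene's strand, and capitals in NR4A2 and NR4A3 mark bases that differ from NR4A1. The exons lie at chr12:52449814-52449943 (NR4A1), chr2:157184916-157185045 (NR4A2) and chr9:102594971-102595100 (NR4A3) in hg19.
NR4A1: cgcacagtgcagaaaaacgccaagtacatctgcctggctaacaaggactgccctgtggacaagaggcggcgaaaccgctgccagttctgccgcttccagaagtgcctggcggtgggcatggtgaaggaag
NR4A2: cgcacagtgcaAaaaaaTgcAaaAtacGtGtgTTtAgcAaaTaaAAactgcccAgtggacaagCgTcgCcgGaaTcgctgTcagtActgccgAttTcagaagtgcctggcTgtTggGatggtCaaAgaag
NR4A3: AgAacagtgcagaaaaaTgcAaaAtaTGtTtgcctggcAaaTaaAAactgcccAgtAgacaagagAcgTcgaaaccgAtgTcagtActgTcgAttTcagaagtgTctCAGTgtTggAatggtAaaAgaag

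NR4A2 and NR4A3 were the closest pair in this exon, with 22 differing bases (83.1% identity). NR4A1 differed from NR4A2 at 28 bases (78.5%) and from NR4A3 at 31 (76.2%). In the exon of 179 bases, identity ran from 62.0% to 67.0%. The differences are dense enough to tell the members apart with reads of 75 bases. Over the canonical transcripts, the most similar windows of 75 bases in 2 members differed at 9 positions, and 0 windows came within 3 mismatches on either strand.

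Promoters of genes that are induced by cAMP often hold the cAMP response element (CRE, TGACGTCA) or its half-site (TGACG), which CREB binds. The 250 bases before annotated starts are shown for the members that the RefSeq table (GRCh38.p14) lists, because the family is known for this kind of induction. The table holds 2 starts of NR4A1 and 1 of NR4A3, all on the plus strand, at chr12:52022582-52022831, chr12:52037465-52037714 and chr9:99821635-99821884, and no entry of NR4A2. Capitals mark CRE half-sites on either strand.
NR4A1, first start: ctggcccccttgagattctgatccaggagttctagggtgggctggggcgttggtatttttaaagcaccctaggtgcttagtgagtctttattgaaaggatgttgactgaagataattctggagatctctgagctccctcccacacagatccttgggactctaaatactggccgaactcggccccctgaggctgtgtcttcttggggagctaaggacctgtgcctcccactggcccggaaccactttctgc
NR4A1, second start: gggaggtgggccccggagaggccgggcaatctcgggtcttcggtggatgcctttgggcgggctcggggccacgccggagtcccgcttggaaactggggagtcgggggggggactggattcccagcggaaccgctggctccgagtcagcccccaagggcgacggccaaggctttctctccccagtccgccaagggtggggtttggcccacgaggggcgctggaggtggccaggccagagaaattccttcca
NR4A3: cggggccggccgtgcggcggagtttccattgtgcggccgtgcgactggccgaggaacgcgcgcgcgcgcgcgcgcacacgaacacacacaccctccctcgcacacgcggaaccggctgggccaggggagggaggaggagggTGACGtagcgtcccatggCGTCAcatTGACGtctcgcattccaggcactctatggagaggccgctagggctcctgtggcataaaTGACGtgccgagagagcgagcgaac

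The NR4A3 window held 4 half-sites, which began 109, 91, 83 and 25 bases before the start, the one at 91 on the opposite strand. Both NR4A1 windows held 0. Of 35116 windows in the table, 21.22% held at least 1 half-site on either strand and 0.236% held 4 or more. The full CRE, which contains the half-site, was in 1.65% of windows and in none of these 3. The same held for NBRE (1.05% of windows), the CArG box of serum response factor (1.16%) and TATAAA (10.72%), each searched on both strands. The canonical NR4A1 transcript used here for exons and lengths starts at position 52445226 of chromosome 12 in hg19, inside the gene. It was not matched to these windows, which are in another build, so its own promoter cannot be taken as searched. The 0 half-sites of the NR4A1 windows therefore do not describe that promoter and set no contrast with NR4A3. A match describes these letters only, and which start RPE-1 cells use was not examined.

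NR4A1, the most abundant member, had TMM-normalized counts of 328.4 and 395.3 in the 4 h libraries (replicates 1 and 2), against 880.6 and 933.1 in the 8 h libraries. TMM-normalized counts are read counts scaled to a common effective library size. Both 8 h libraries thus lay above both 4 h libraries, by more than the gap between replicates. The means were 361.9 ± 47.2 at 4 h and 906.8 ± 37.2 at 8 h (SD, n = 2 per time), which is a log2FC of 1.32 (standard error 0.10) or 2.50-fold.

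NR4A2, a gene best known for its part in dopamine neurons, had normalized counts of 104.1 and 108.8 after 4 h, against 419.3 and 470.9 after 8 h. Replicates lay close together at both times. The means were 106.4 ± 3.32 and 445.1 ± 36.5 (SD, n = 2 per time), with a log2FC of 2.06 (standard error 0.14) or 4.17-fold.

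NR4A3 had the fewest reads, with normalized counts of 21.5 and 29.9 after 4 h, against 91.0 and 149.1 after 8 h. The 8 h replicates differed more than those of the other members, and both still lay above the 4 h libraries. Its means were 25.7 ± 5.92 and 120.1 ± 41.1 (SD, n = 2 per time), with a log2FC of 2.20 (standard error 0.28) or 4.60-fold. The raw counts behind these values were 24 and 33 at 4 h, with exact 95% Poisson intervals of 15.4 to 35.7 and 22.7 to 46.3. At 8 h they were 89 and 120, with intervals of 71.5 to 109.5 and 99.5 to 143.5. These intervals cover counting error only. Without replicate 1 of 8 h the log2FC of NR4A3 was 2.53, and without replicate 2 of 8 h it was 1.82.

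**Figure D1:**
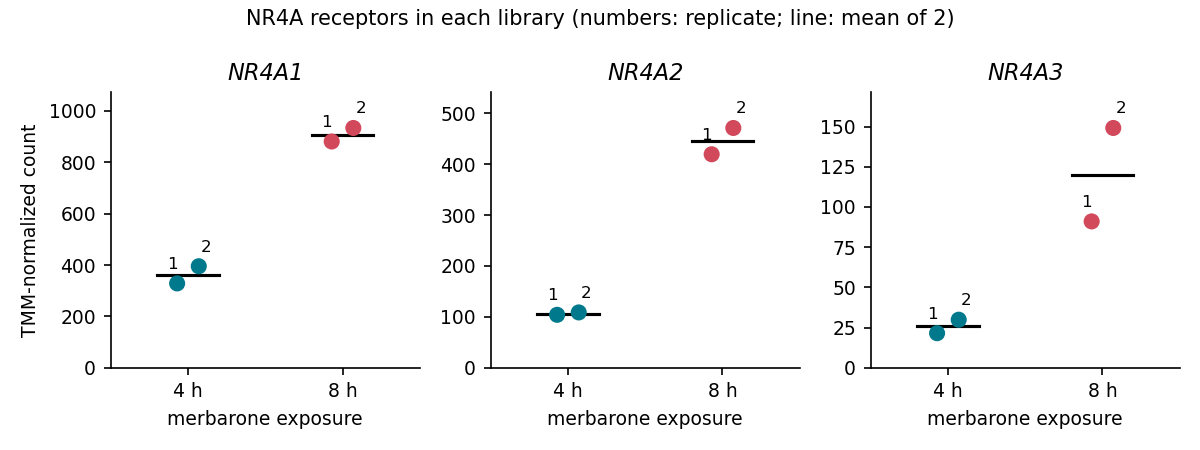
TMM-normalized counts (vertical axes, each starting at 0 with its own scale) of NR4A1, NR4A2 and NR4A3 after 4 h and 8 h of merbarone, with 1 point per library, its replicate number and a line at the mean of 2. Each member's 8 h libraries lie above its 4 h libraries, and the NR4A3 replicates at 8 h, at 91.0 and 149.1, lie furthest apart relative to the scale of their panel.

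Non-overlap by itself was common, since 34.8% of the 12559 genes tested had both 8 h libraries above both 4 h libraries and 34.9% had both below. A differentially expressed gene (DEG) here has a Benjamini-Hochberg adjusted p below 0.05 in the quasi-likelihood test of edgeR and an absolute log2FC above 1, and 1.45% of the genes tested were higher DEGs. Ordered by log2FC from the largest rise, NR4A3 was at rank 10, NR4A2 at rank 13 and NR4A1 at rank 72 of the 12559. These ranks come from the values that drew attention to the family and add nothing independent.

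Levels of different genes were compared per length, as TMM-normalized CPM (counts scaled to the library total) per kb of canonical transcript. NR4A1 stood at 15.2 ± 1.98 at 4 h and 38.1 ± 1.56 at 8 h, NR4A2 at 3.20 ± 0.0996 and 13.4 ± 1.10, and NR4A3 at 0.479 ± 0.110 and 2.24 ± 0.764 (SD, n = 2 per time). The order NR4A1, NR4A2, NR4A3 was the same in all 4 libraries, with no overlap between members at either time. On this scale NR4A1 was 4.41 and 5.08 times the level of NR4A2 after 4 h, but 2.93 and 2.77 times after 8 h. The share of NR4A1 in the summed level of the family was 79.6% and 81.3% in the 4 h libraries, against 72.1% and 69.8% in the 8 h libraries. The share of NR4A2 was 18.1% and 16.0%, against 24.6% and 25.2%, and that of NR4A3 ran from 2.32% to 4.95%. The family therefore became less dominated by NR4A1, though NR4A1 still held the larger part.

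The unspliced mapping leaves out reads that cross an exon junction. In canonical transcripts, 81.6% of the possible 75-base reads of NR4A1, 84.8% of those of NR4A2 and 90.6% of those of NR4A3 lie within 1 exon. With the length that such reads can cover, the levels at 8 h were 48.1, 16.1 and 2.50, and the order was unchanged. Overlapping genes were also examined in GENCODE. STX17-DT, a long non-coding RNA on the opposite strand of NR4A3, had at most 1 read in any library. NR4A1AS, a long non-coding RNA at chr12:52452243-52453287, lies opposite the 3′ end of NR4A1 and is not listed under that name in the files. Whether the counting used the strand is not given in the sources used here, so reads of the pair would not be told apart if it did not.

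Other nuclear receptors give the members a frame of reference. Of 45 receptor genes outside the family, 26 passed the CPM filter and 12 had 0 reads in all libraries, among them the liver receptors HNF4A and NR1H4. NR0B1 (DAX1), a receptor without a DNA-binding domain, was the 1 DEG of the 26 (3.85%, against 5.33% of all genes tested). Its normalized counts were 7.18 and 1.81 after 4 h, against 11.3 and 21.1 after 8 h, so that it rested on few reads (log2FC 1.78, standard error 0.60, edgeR adjusted p = 0.0236). NR0B1 passed the CPM filter only through its 8 h libraries, so the filter favoured a rise. NR0B1 was not a DEG in DESeq2, nor without replicate 2 of 4 h or replicate 2 of 8 h, and its adjusted p ran from 0.00346 to 0.228 over the alternatives.

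At an adjusted p below 0.05 without a fold threshold, 7 of the 26 receptors rose and 3 fell (19.9% of all genes tested rose and 18.8% fell, 38.8% together). PPARD, the receptor with the most reads, rose, with normalized counts of 2055 ± 159 and 3468 ± 77.5 (SD, n = 2 per time, log2FC 0.76, edgeR adjusted p = 4.29e-07). NR1D2 (REV-ERB beta), a clock repressor, rose from 1324 ± 138 to 1867 ± 7.84 (SD, n = 2 per time, log2FC 0.50, edgeR adjusted p = 0.000135). NR3C1, the glucocorticoid receptor gene, rose by less, from 1191 ± 30.9 to 1416 ± 49.9 (SD, n = 2 per time, log2FC 0.25, edgeR adjusted p = 0.0198). VDR, the vitamin D receptor gene, was level, at 1092 ± 118 and 1092 ± 101 (SD, n = 2 per time). NR1D1 (REV-ERB alpha) and RARB, a retinoic acid receptor gene, were picked after their values were seen, as the extremes among well-counted receptors, with log2FC of 0.94 (edgeR adjusted p = 1.94e-07) and −0.66 (edgeR adjusted p = 0.000155). The median log2FC of the 26 was 0.07, beside 0.00 over all genes tested.

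**Figure D2:**
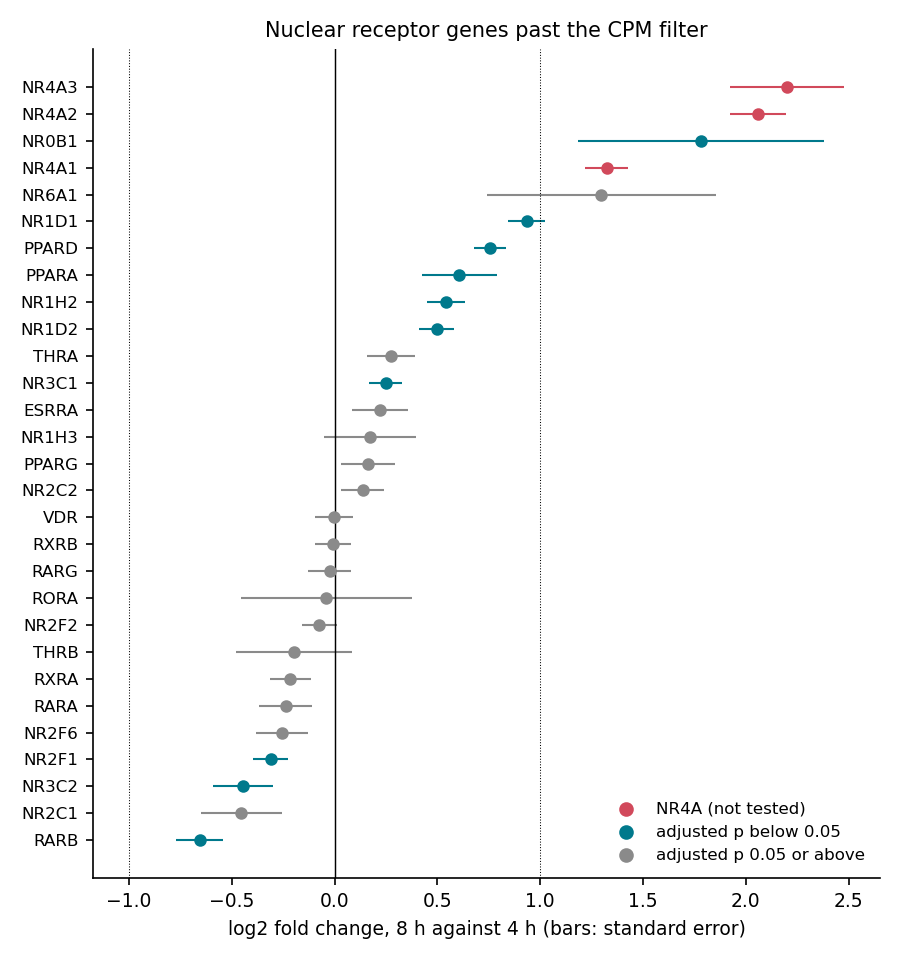
Log2 fold change between 8 h and 4 h (horizontal axis, bars are standard errors, dotted lines at 1 and −1) for the nuclear receptor genes past the CPM filter. The NR4A genes, drawn in red and not tested, lie at 1.32, 2.06 and 2.20. NR0B1 and NR6A1, with wide bars, passed the filter only through their 8 h libraries. NR0B1 is the 1 DEG among the 26 receptors outside the family.

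In level per length, NR4A1 was at place 11 of 29 receptors at 4 h and at place 4 at 8 h. Its 8 h libraries, at 37.0 and 39.2, overlapped the range of NR1D1 (39.1 to 41.8) just above it and enclosed that of NR1D2 (37.1 and 37.3) just below. NR4A2 went from place 23 to place 13, where its libraries (12.6 and 14.2) overlapped those of PPARG (14.0 and 14.6), a receptor of fat cell formation. NR4A3 went from place 26 to place 24, and its 8 h libraries (1.69 and 2.78) overlapped those of both NR2C1 (2.18 and 2.91) and PPARA (1.63 and 2.23). At 8 h, NR4A1 was at percentile 83.8 of the levels of 12241 tested genes with a known length, against 64.2 at 4 h. NR4A2 went from percentile 24.8 to 60.7 and NR4A3 from 3.9 to 20.4.

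**Figure D3:**
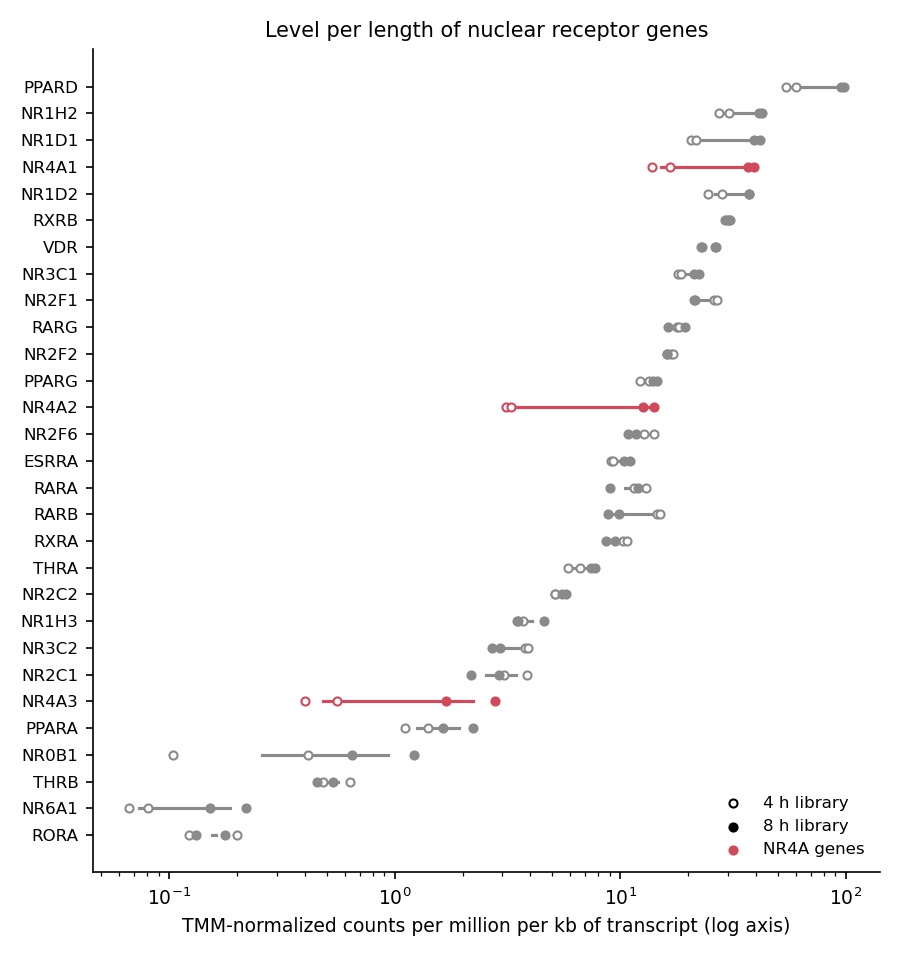
Level per length of 29 nuclear receptor genes, in TMM-normalized CPM per kb on a log axis, with open points for 4 h libraries, filled points for 8 h libraries and a line between the means. NR4A1 ends among the most abundant receptors at 38.1, NR4A2 in the middle at 13.4 and NR4A3 near the bottom at 2.24.

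The known inducers of NR4A genes were followed in lists by pathway. The first list holds cAMP-dependent protein kinase (PKA), CREB, its CRTC coactivators and their regulators, and all 22 genes passed the filter. One was a DEG (4.55%, against 5.33% of all genes tested). SIK1, a kinase induced by CREB that holds CRTC proteins in the cytoplasm, had normalized counts of 3173 and 3631 after 4 h, against 8249 and 9822 after 8 h. SIK1 rose by a log2FC of 1.41 ± 0.09 (standard error of the fit, edgeR adjusted p = 9.98e-10).

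Without the fold threshold, 10 genes of this list rose and 1 fell (19.9% and 18.8% of all genes), and the median log2FC was 0.32, beside 0.00 over all genes. CREBBP, a coactivator of CREB with acetyltransferase activity, rose from 1391 ± 56.5 to 2230 ± 306 (SD, n = 2 per time, log2FC 0.68, edgeR adjusted p = 9e-06). SIK2 rose from 725.0 ± 64.5 to 986.1 ± 30.6 (SD, n = 2 per time, log2FC 0.44, edgeR adjusted p = 0.000744). The PKA subunits PRKAR1A and PRKACA, which regulate and carry the kinase activity, had log2FC of 0.09 and −0.03 (edgeR adjusted p = 0.389 and 0.811). EP300, CRTC2, ATF1, CREM and CREB1, further CREB-family factors and coactivators that passed, were picked after their values were seen and had log2FC of 0.95, 0.60, 0.52, 0.45 and 0.44. The coactivators CRTC1 and CRTC3 did not pass, with log2FC of −0.17 and 0.27 (edgeR adjusted p = 0.45 and 0.0551). RPS6KA4 was the 1 gene of the list that fell (log2FC −0.32, edgeR adjusted p = 0.0297). Leaving out replicate 2 of 4 h or replicate 1 of 8 h took EP300 past the fold threshold as well and made 2 DEGs.

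The second list covers calcium signalling through calcineurin, NFAT and MEF2, with 18 of 20 genes past the filter and 1 DEG (5.56%, close to the 5.33% of all genes). HDAC9, a class IIa deacetylase that represses MEF2, had 542.9 and 460.5 normalized counts after 4 h, against 1109 and 971.6 after 8 h. It rose by a log2FC of 1.05 ± 0.10 (standard error of the fit, edgeR adjusted p = 1.8e-07). It fell short of the fold threshold under library size alone and without replicate 2 of 4 h or replicate 1 of 8 h. MEF2D, a factor that drives NR4A1 in lymphocytes, rose from 931.0 ± 38.6 to 1649 ± 91.4 (SD, n = 2 per time, log2FC 0.82, edgeR adjusted p = 3.37e-07). MEF2A, HDAC7 and RCAN1, a calcineurin inhibitor, had log2FC of 0.03, −0.05 and 0.22, with edgeR adjusted p of 0.803, 0.708 and 0.0505. In all, 4 of the 18 genes rose and 0 fell at an adjusted p below 0.05 (19.9% and 18.8% of all genes), and the median log2FC was 0.12.

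The third list, of ERK kinases and serum response factor with its partners, had 0 DEGs among 13 genes in edgeR, limma-voom and DESeq2, while 11 had an unadjusted p below 0.05 in edgeR, as did 5936 of the 12559 genes tested. At an adjusted p below 0.05 alone, 5 rose and 2 fell (19.9% and 18.8% of all genes), and the median log2FC was 0.20. RPS6KA2, a kinase downstream of ERK, and MAP2K2, a kinase that activates ERK, rose with log2FC of 0.21 (edgeR adjusted p = 0.0399) and 0.49 (edgeR adjusted p = 0.000713). ELK3, a partner of serum response factor, had a log2FC of 0.17 (edgeR adjusted p = 0.0959).

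Other immediate-early transcription factors, which answer to many of the same signals, were divided. Of 22, 21 passed the filter, and 2 were higher and 3 lower DEGs (23.8%, against 1.45% higher and 3.88% lower among all genes tested). FOS, a subunit of AP-1, had normalized counts of 350.0 and 398.0 after 4 h, against 877.5 and 985.3 after 8 h, close to those of NR4A1. It rose by a log2FC of 1.31 ± 0.10 (standard error of the fit, edgeR adjusted p = 1.22e-08). MAFF, a small MAF protein, rose from 1749 ± 32.1 to 3530 ± 56.0 (SD, n = 2 per time, log2FC 1.01, edgeR adjusted p = 6.39e-09), just past the fold threshold. Like HDAC9 it fell short of that threshold under library size alone and without replicate 2 of 4 h or replicate 1 of 8 h.

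The EGR zinc finger factors, often induced beside the NR4A genes, moved in the opposite direction. EGR1 had 3634 and 3675 normalized counts after 4 h, against 1066 and 1297 after 8 h, and fell (log2FC −1.63 ± 0.09, standard error of the fit, edgeR adjusted p = 2.58e-10). EGR2 fell from 60.4 ± 1.71 to 9.75 ± 5.01 (SD, n = 2 per time, log2FC −2.57, edgeR adjusted p = 1.19e-05). This fall rested on 13 and 5 reads at 8 h. The 8 h libraries alone would not have taken EGR2 past the CPM filter, so the filter favoured a fall. EGR3 fell from 73.0 ± 7.13 to 29.3 ± 2.44 (SD, n = 2 per time, log2FC −1.32, edgeR adjusted p = 0.000445). These 3 calls and that of FOS held under each of the 11 alternative fits.

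At an adjusted p below 0.05 alone, 4 factors of this list rose and 11 fell (19.9% and 18.8% of all genes), with a median log2FC of −0.25. Among the most abundant, KLF6, a Krüppel-like factor, fell from 6180 ± 192 to 4752 ± 493 (SD, n = 2 per time, log2FC −0.38, edgeR adjusted p = 0.000723), and ATF3, a stress-induced factor, fell with a log2FC of −0.54 (edgeR adjusted p = 2.18e-05). MYC fell with a log2FC of −0.19 (edgeR adjusted p = 0.044), while JUND, an AP-1 subunit, rose with one of 0.71 (edgeR adjusted p = 6.36e-06). BHLHE40, picked after its value was seen, rose with a log2FC of 0.50 (edgeR adjusted p = 0.000119). FOS, MAFF, JUND and BHLHE40 were thus the 4 that rose, while the list as a whole did not. Because the NR4A genes were chosen for their rise, the direction shared with these 4 is a description only.

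**Figure D4:**
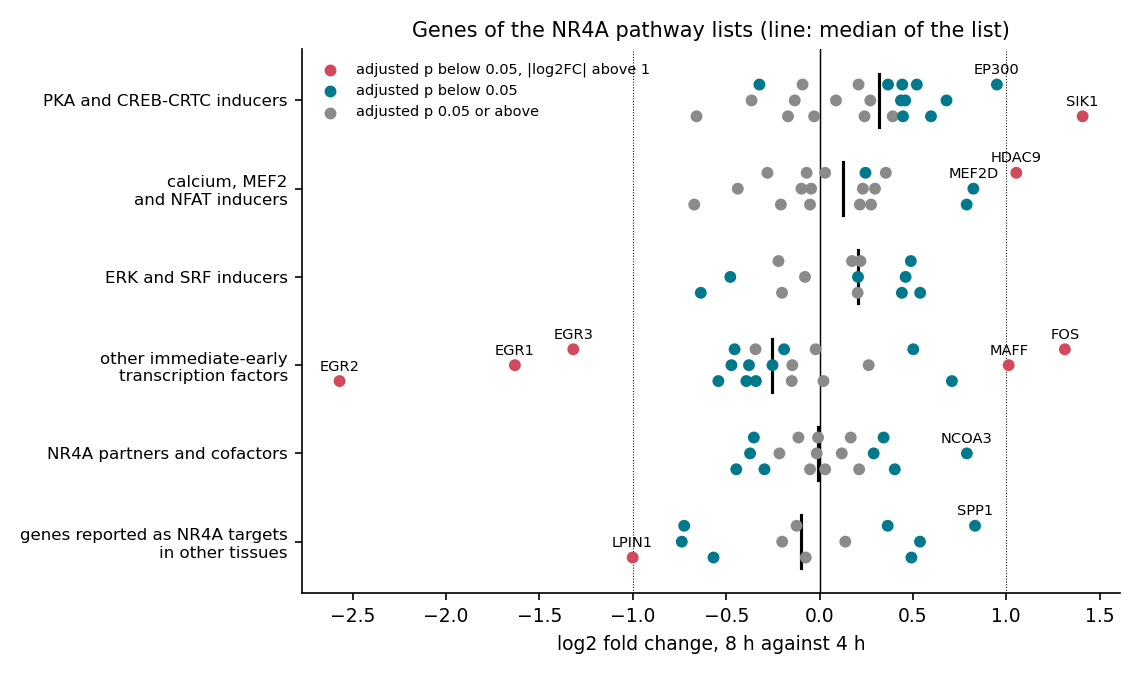
Log2 fold change between 8 h and 4 h (horizontal axis) of the tested genes in 6 lists around the NR4A receptors, with 1 point per gene, a line at each list's median and dotted lines at 1 and −1. Points off to the left in the immediate-early list are EGR2, EGR1 and EGR3, at −2.57, −1.63 and −1.32, and SIK1 at 1.41 lies furthest to the right.

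Of 18 partners and cofactors of NR4A proteins, 17 passed the filter and 0 were DEGs in edgeR, limma-voom or DESeq2, while 11 had an unadjusted p below 0.05 in edgeR (5936 of 12559 over all genes). At an adjusted p below 0.05 alone, 4 rose and 4 fell, where 19.9% and 18.8% of all genes did. The retinoid X receptors that pair with NR4A1 and NR4A2 had log2FC of −0.22 (RXRA, edgeR adjusted p = 0.101) and −0.01 (RXRB, edgeR adjusted p = 0.95), and RXRG had 0 reads. NCOA3, a steroid receptor coactivator, rose from 615.5 ± 12.8 to 1064 ± 8.69 (SD, n = 2 per time, log2FC 0.79, edgeR adjusted p = 9.39e-07). The corepressor NCOR1 and the cofactor TRIM28 had log2FC of −0.11 and 0.17, with edgeR adjusted p of 0.306 and 0.0792.

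Genes known as NR4A targets in other tissues were mostly silent or divided. Of 32, 12 passed the filter and 10 had 0 reads in all libraries, among them POMC of the pituitary, TH of dopamine neurons and the steroid enzyme genes HSD3B2, CYP11B2, CYP17A1 and CYP21A2. At an adjusted p below 0.05 alone, 4 rose and 4 fell (19.9% and 18.8% of all genes), with a median log2FC of −0.10. LPIN1, a phosphatidate phosphatase gene, was the 1 DEG (8.33%, against 5.33% of all genes) and fell, with 1938 and 2062 normalized counts after 4 h, against 972.6 and 1028 after 8 h (log2FC −1.0 ± 0.08, standard error of the fit, edgeR adjusted p = 2.26e-08). It sat at the fold threshold, and 6 of 11 alternative fits, the one with a replicate block among them, left it just short of it with log2FC from −1.11 to −0.95 over all 11.

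Among the abundant genes of this list, CCND1 (cyclin D1) fell from 8558 ± 329 to 5772 ± 172 (SD, n = 2 per time, log2FC −0.57, edgeR adjusted p = 3.58e-06). NFKBIA, the NF-kB inhibitor gene, fell with a log2FC of −0.74 (edgeR adjusted p = 2.42e-06). BDNF, a neurotrophin gene, rose with a log2FC of 0.49 (edgeR adjusted p = 6.08e-05). SPP1 (osteopontin), picked after its value was seen as the largest rise of the list, had a log2FC of 0.83 (edgeR adjusted p = 5.71e-05).

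The genes around the NR4A genes were also followed. Up to 3 listed genes on each side and any overlapping gene gave 19 genes, of which 10 passed the filter. None was a higher DEG and 1 was a lower DEG in edgeR, where 1.45% and 3.88% of all genes were. That gene, KRT80, encodes a keratin, starts 169.2 kb from the start of NR4A1 and fell, with normalized counts of 1887 ± 116 and 746.8 ± 91.4 (SD, n = 2 per time, log2FC −1.34, edgeR adjusted p = 2.98e-09). ACVR1B, an activin receptor gene 71.1 kb on the other side of NR4A1, rose with a log2FC of 0.55 (edgeR adjusted p = 0.000589). ATG101, an autophagy gene 46.4 kb away, rose with one of 0.27 (edgeR adjusted p = 0.0235). TAMALIN, the listed gene whose start is nearest to that of NR4A1 at 15.9 kb, had at most 1 read.

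Of the listed genes followed around NR4A2, only GPD2 and GALNT13 passed the filter. GPD2, a mitochondrial glycerol-phosphate dehydrogenase gene 92.9 kb away, fell with a log2FC of −0.27 (edgeR adjusted p = 0.042). GALNT13, 2470.4 kb away, had one of −0.07 (edgeR adjusted p = 0.683). Around NR4A3, SEC61B, a gene of the protein translocation channel, rose with a log2FC of 0.53 (edgeR adjusted p = 0.00573), and STX17, ERP44, INVS and ALG2 had log2FC between −0.13 and 0.24 and did not pass.

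**Figure D5:**
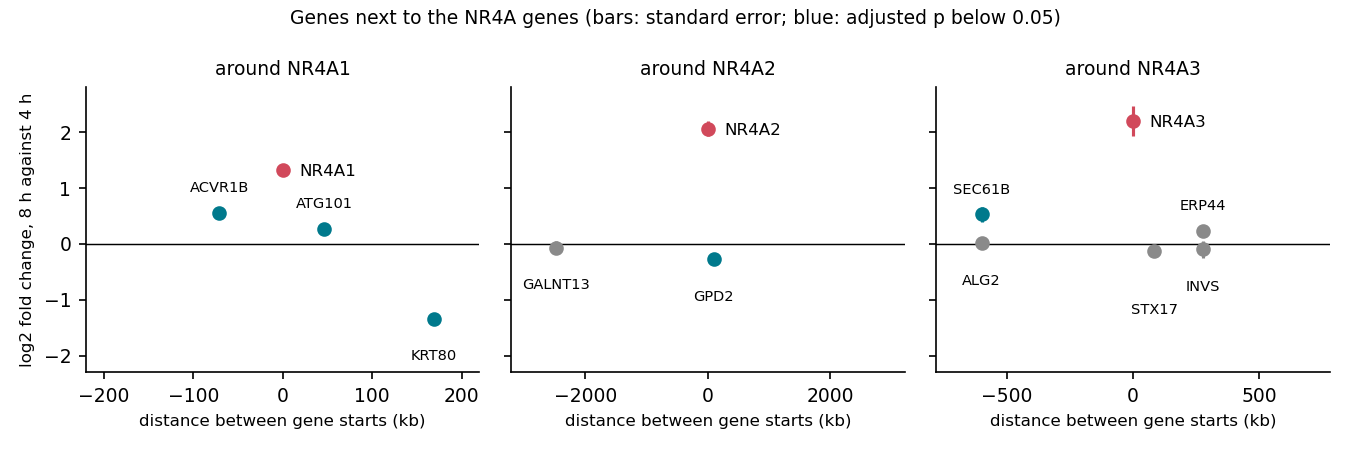
Log2 fold change between 8 h and 4 h (vertical axis, bars are standard errors) of each NR4A gene and of the neighbours that passed the CPM filter, against the distance in kb along the chromosome between annotated gene starts, negative toward lower coordinates. The NR4A genes, in red, were chosen for their rise and not tested. They lie above every neighbour, the highest of which are ACVR1B at 0.55 and SEC61B at 0.53.

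Likeness of pattern was measured as the Euclidean distance of log2-CPM, centred per gene, over the 4 libraries, where 2 replicates at each of 2 times leave few ways to differ. NR4A2 and NR4A3 were the closest pair of members, at a distance of 0.47, with 0.73 between NR4A1 and NR4A2 and 0.91 between NR4A1 and NR4A3. The genes nearest to NR4A1 were ITPRIP, an inositol trisphosphate receptor interacting protein (0.03), and FOS (0.08), followed by NACA4P, a pseudogene, MSC, a transcription factor gene, and CHMP1B, a gene of membrane scission (0.13 each). ITPRIP had normalized counts of 3752 and 4498 after 4 h, against 10170 and 10850 after 8 h.

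NR4A2 was nearest to SNORD32A (0.08) and AVPI1 (0.16), then to B3GALT1, PLCL1 and the glucose transporter gene SLC2A3 (0.35 to 0.38). SNORD32A is a small nucleolar RNA gene inside a host gene and rested on few reads, with means of 5.41 and 27.1. B3GALT1 (means of 3.61 and 23.8) and PLCL1 (2.25 and 16.6) rested on fewer. SNORD32A, B3GALT1 and PLCL1 passed the CPM filter only through their 8 h libraries, so that filter favoured a rise. AVPI1, a gene induced by vasopressin, had normalized counts of 848.9 and 1033 after 4 h, against 3711 and 4053 after 8 h. NR4A3, whose replicates spread most, had no gene closer than 0.33, and B3GALT1, AVPI1, CEBPD, SNORD32A and SMPD3 came first (0.33 to 0.53). AVPI1, SNORD32A and B3GALT1 were thus among the 5 nearest genes of both NR4A2 and NR4A3. For SNORD32A and B3GALT1, this closeness to genes chosen for a rise was favoured by the filter. SMPD3, listed for NR4A3, also rested on few reads, with means of 11.7 and 40.6. Its 4 h libraries alone would not have passed the filter. With Pearson correlation in place of distance, 1 of the 5 genes nearest to NR4A1 (ITPRIP) and 0 of those of NR4A2 and NR4A3 were the same.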

How the data were processed

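The authors mapped single 75-base reads to hg19 with Bowtie 1.2.0 (version from the submitters' processing notes), kept reads with 1 position, and deposited raw counts per NCBI Gene identifier. The gene annotation and counting tool are not given in the sources used here. The members and all gene lists were chosen with earlier results of these data known. A CPM above 1 was required in 2 or more libraries, which left 12559 genes. Counts were scaled by TMM and fitted in edgeR 4.0.16 (R 4.3.3) with time as the only term. The quasi-likelihood test gave Benjamini-Hochberg adjusted p-values over all genes tested. A standard error is the log2FC divided by the square root of F. Limma-voom (limma 3.58.1), the test of the study, and DESeq2 1.42.0 were alternatives, as were other scalings and filters, no fold threshold, a replicate block, and leaving out each library. Symbols came from RefSeq (GRCh38.p14), positions and canonical transcript lengths from GENCODE on GRCh37. Genes named are the members, DEGs of each list with up to 4 of its most abundant other genes, neighbours, and the 5 genes nearest in pattern to each member. Some genes that this rule names are not reported here. Others are said to be picked after their values were seen. Depth was 8064450 to 10324697 counts. Replicates were not copies, since their chi-square per degree of freedom was 2.67 at 4 h and 3.84 at 8 h, where sampling gives about 1. With 2 cultures per time, the test borrows the estimate of spread from other genes, and its p-values measure only the spread between these cultures.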

Additional observations from a re-analysis of the deposited data

How the results depend on the processing

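The log2FC of the NR4A genes were positive under all 11 alternative fits. Scaling by library size alone moved the median of all genes from 0.00 to −0.11 and gave 1.22, 1.95 and 2.09 for NR4A1, NR4A2 and NR4A3. With 1 library left out, where a lone sample is assumed to vary like the others, they ran from 1.19 to 1.47, from 1.98 to 2.14 and from 1.82 to 2.53. Whether same-numbered libraries were handled together is not given in the sources used here, and their correlation of deviations, 0.05, cannot settle it. With a replicate block the values were 1.33, 2.06 and 2.21, there were 691 DEGs in place of 669, and 0 of the listed targets were DEGs, since LPIN1 fell short of the fold threshold. DESeq2 gave 507 DEGs. DEGs ran from 563 to 768 with 1 library left out, and 4867 genes passed without a fold threshold. Without that threshold the counts were 10 (receptors outside the family), 11 (PKA and CREB), 4 (calcium and MEF2), 7 (ERK), 15 (immediate-early), 8 (partners) and 8 (targets). The 1 receptor DEG became 0 with DESeq2 and could not be tested with a CPM above 2, which left 0. The 1 target DEG became 0 with DESeq2, RLE factors or no CPM filter, and the 1 calcium DEG 0 with library size alone. With 1 library left out, DEGs were 0 to 1 (receptors), 1 to 2 (PKA and CREB), 0 to 2 (calcium), 4 to 5 (immediate-early), 0 to 1 (targets) and 0 for ERK and partners. The median log2FC of the receptors, 0.067, changed sign with library size alone (−0.039), no CPM filter (−0.001) or a CPM above 2 (−0.011). NR4A3 is limited by depth, with at most 33 reads per library at 4 h.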
